A study of Homo sapiens with 4 samples.

Results

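The genes described here are 10 genes of mucins, secreted factors, surface proteins and a lipid carrier that are known from the intestinal epithelium, out of 18377 genes measured: MUC13, MUC12, AGR2, TFF1, LGALS4, CDH17, GPA33, GUCY2C, ADGRG7 and FABP2. They were named by symbol, with earlier results of these arrays known, and the values that bear on that choice are their levels on the 4 arrays and the difference between the marker-positive and the marker-negative fraction of each sort. Those values are therefore a description and carry no test. The cells were Huh7, an established human hepatocellular carcinoma line, with no treatment named in the labels. Cells were sorted by flow cytometry into CD133+ and CD133- cells (CD133 is the protein of PROM1). Another such sort gave ALDH+ and ALDH- cells (ALDH is aldehyde dehydrogenase). Total RNA of each fraction was hybridised to 1 array, so there is no spread between replicates for any value below. All groups share 1 cell line, and the sources used here do not say how the gates were set or whether the sorts came from 1 culture.

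Epithelia of the gut are covered by mucus, which is built from heavily glycosylated mucins. Some mucins are secreted as gels and others, such as MUC13 and MUC12, stay in the apical membrane as part of the glycocalyx. Goblet cells fold and release mucins together with small trefoil peptides, while absorptive cells carry cadherins, receptors and lectins on their surface and fatty acid carriers in their cytosol. Healthy hepatocytes are not a main site of these proteins.

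As a check of the labels, PROM1 stood at a log2 level of 9.0 in CD133+ and 5.32 in CD133- cells. ALDH1A1, a gene of the enzyme family behind the other sort, stood at 11.14 in ALDH+ and 11.10 in ALDH- cells. The PROM1 transcript thus followed the labels of its sort, and the ALDH1A1 transcript does not check those of the ALDH sort. The median of all probes ran from 4.92 to 5.04 over the arrays, and the correlation between pairs of arrays from 0.982 to 0.989.

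In the CD133 sort 6 of the 10 genes were, by the deposited values, at least 2-fold higher in CD133+ cells: MUC13, AGR2, TFF1, CDH17, GUCY2C and ADGRG7. The same 6 genes and MUC12 were at least 2-fold lower in ALDH+ than in ALDH- cells. LGALS4 went the same way in each sort with smaller differences, and GPA33 and FABP2 lay below the expression floor on all 4 arrays. The floor was 4.98, the median of all values in the table, and a gene counted as above it in a sort when the brighter array of that sort reached it. Among all genes above the floor, a 2-fold excess in CD133+ cells was met by 0.716% and a 2-fold deficit in ALDH+ cells by 1.3%. Both at once held for 0.416% of the genes above the floor in both sorts. These shares are given as background, and nothing is read from them, since the genes were chosen on the same contrasts. In fractions measured in bulk, fewer cells that express a gene and less RNA per cell cannot be told apart. Differences are log2 values of the positive minus the negative fraction, and where a pair is given, the CD133 sort comes first and the ALDH sort after it.

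Since most of these genes were higher in CD133+ but lower in ALDH+ cells, the stretches before their transcription start sites are shown where the RefSeq table held one. It had entries for 7 of the 10 genes, with 8 windows in all, and none for CDH17, GUCY2C and TFF1. The windows printed are the 250 bases before the start, 5′ to 3′ on the gene's strand, from RefSeq in build GRCh38.p14. They are those of MUC13, AGR2 and ADGRG7, whose deposited values were at least 2-fold apart in each sort (for AGR2 in the CD133 sort only through a value below the floor), and of FABP2, a gene below the floor, for contrast. ADGRG7 has a pair of annotated starts and so a pair of windows. MUC13 lies at chr3:124934752-124935001 on the minus strand, AGR2 at chr7:16805000-16805249 on the minus strand, ADGRG7 at chr3:100609351-100609600 and chr3:100635288-100635537 on the plus strand, and FABP2 at chr4:119322139-119322388 on the minus strand. Capitals mark matches, on either strand, to short motifs.
MUC13: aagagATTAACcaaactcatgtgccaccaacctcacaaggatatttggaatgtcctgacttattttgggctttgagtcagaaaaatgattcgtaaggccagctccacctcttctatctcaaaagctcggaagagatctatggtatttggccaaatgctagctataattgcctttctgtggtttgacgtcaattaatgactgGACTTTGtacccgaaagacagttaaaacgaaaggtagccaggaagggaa
AGR2: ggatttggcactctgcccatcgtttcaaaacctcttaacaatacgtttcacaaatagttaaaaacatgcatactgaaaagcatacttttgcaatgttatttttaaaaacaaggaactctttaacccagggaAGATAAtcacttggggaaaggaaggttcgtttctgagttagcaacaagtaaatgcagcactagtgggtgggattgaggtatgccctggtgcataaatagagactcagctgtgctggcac
ADGRG7, upstream start: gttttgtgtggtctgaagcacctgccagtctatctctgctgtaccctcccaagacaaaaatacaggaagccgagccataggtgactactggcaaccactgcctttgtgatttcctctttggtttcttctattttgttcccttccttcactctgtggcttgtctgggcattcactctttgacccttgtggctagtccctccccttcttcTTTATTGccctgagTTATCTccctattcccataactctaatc
ADGRG7, downstream start: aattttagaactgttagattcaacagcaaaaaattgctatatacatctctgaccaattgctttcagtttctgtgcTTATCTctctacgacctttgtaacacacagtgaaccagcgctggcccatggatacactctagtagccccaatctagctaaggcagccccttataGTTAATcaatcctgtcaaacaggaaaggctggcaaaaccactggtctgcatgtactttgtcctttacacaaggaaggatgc
FABP2: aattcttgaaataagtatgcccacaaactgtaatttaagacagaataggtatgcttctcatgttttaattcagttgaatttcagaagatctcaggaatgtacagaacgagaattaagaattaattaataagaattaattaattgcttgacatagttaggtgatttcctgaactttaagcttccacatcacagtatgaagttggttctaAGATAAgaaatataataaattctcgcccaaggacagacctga

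The motif searched for the TATA box was TATAAA. CDX factors, known from gut epithelium, were searched by TTTATNG. HNF1 factors were searched by GTTAAT, a part of their site, and HNF4 factors by CAAAGTC, a part of theirs. For GATA factors the letters were AGATAA and, in place of the first base, also TGATAA. In MUC13 the HNF4 letters lay 49 to 43 bases before the start and the HNF1 letters 245 to 240 bases before it. AGR2 held the GATA letters 119 to 114 bases before its start, and FABP2 held them 42 to 37 bases before its own. The upstream ADGRG7 window had CDX letters 42 to 36 bases and GATA letters 28 to 23 bases before the start, and the downstream one GATA letters 175 to 170 bases and HNF1 letters 81 to 76 bases before it. In MUC12, whose window is not printed, the CDX letters (31 to 25 bases before the start) and the reverse of TATAAA (31 to 26 bases) overlapped. The GPA33 window, also not printed, held the HNF4 letters, and that of LGALS4 the GATA letters. Over all 35116 windows of the table, 14.6% held the GATA letters, 10.7% those of the TATA box, 8.93% those of CDX, 6.23% those of HNF1 and 2.91% those of HNF4. A match is a run of letters only, and binding was not measured here.

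MUC13, a membrane mucin of the gut surface, had the largest CD133 difference of the 10 genes. Its log2 level was 9.38 in CD133+, 6.85 in CD133-, 8.76 in ALDH+ and 10.36 in ALDH- cells. All 4 arrays were well above the floor, with ALDH- cells highest and CD133- cells lowest. The difference of 2.53 in the CD133 sort (5.77-fold) had rank 2 among the 11591 genes above the floor there, after PROM1, and the difference of -1.60 in the ALDH sort (3.03-fold lower in ALDH+ cells) had rank 14 from the lowest among 11879 genes. The CD133 difference was 1.58 times the size of the ALDH difference.

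MUC12, a second membrane mucin, was read by 3 probes that did not give one answer. The brightest probe, used for the gene, read 5.09 in CD133+, 4.53 in CD133-, 4.89 in ALDH+ and 6.54 in ALDH- cells. Only the ALDH- array was clearly above the floor, and the ALDH difference of -1.65 corresponds to at least 2.95-fold when the floor takes the place of the dimmer array. The next probe read 5.04, 4.63, 4.65 and 5.24 on the same arrays, a CD133 difference of 0.41 and an ALDH difference of -0.58. The dimmest probe read 3.46, 3.11, 3.97 and 3.96, below the floor throughout, and differed by 0.35 and 0.016. With the floor in place, the CD133 difference of the brightest probe was 0.11, so the 2-fold difference of MUC12 rests on 1 probe and 1 sort. Tandem repeats of mucin genes resemble each other, and probe sequences were not used here, so shared signal with other mucins is uncertain.

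AGR2, a disulfide isomerase of the endoplasmic reticulum that mucin folding depends on, was at 5.68 in CD133+, 3.85 in CD133-, 4.76 in ALDH+ and 6.42 in ALDH- cells. The dimmer array of each sort lay below the floor. The deposited differences were 1.82 and -1.66, and against the floor AGR2 was at least 1.62-fold higher in CD133+ and at least 2.71-fold lower in ALDH+ cells. Its 2-fold difference in the CD133 sort therefore depends on values below the floor.

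TFF1, a secreted trefoil peptide best known from the stomach lining, was at 7.78 in CD133+, 6.19 in CD133-, 6.86 in ALDH+ and 8.10 in ALDH- cells. These levels were above the floor on every array, and the differences were 1.59 (3.02-fold higher) and -1.24 (2.36-fold lower in ALDH+ cells). LGALS4, galectin-4, a lectin that binds sugar chains at the surface of gut epithelium, was at 5.57 in CD133+, 5.0 in CD133-, 5.60 in ALDH+ and 6.32 in ALDH- cells. It differed by 0.57 and -0.71, short of 2-fold in both sorts, and its CD133- level lay just at the floor. The CD133+ and ALDH+ levels of LGALS4 were nearly equal.

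CDH17, the liver-intestine cadherin that joins neighbouring epithelial cells, stood at 9.44 in CD133+, 7.35 in CD133-, 8.19 in ALDH+ and 9.82 in ALDH- cells. It was well above the floor on all arrays and 4.27-fold higher in CD133+ but 3.08-fold lower in ALDH+ cells (differences of 2.10 and -1.62). Of the other 9 genes, CDH17 had the pair of differences nearest to that of MUC13, at a distance of 0.43 on the log2 scale. GPA33, the A33 antigen, an immunoglobulin-type surface protein of gut epithelium, was at 4.31, 3.94, 4.22 and 4.08 in CD133+, CD133-, ALDH+ and ALDH- cells. Below the floor throughout, its differences of 0.37 and 0.13 have no order against those of the brighter genes.

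GUCY2C, guanylate cyclase C, the receptor for the gut peptides guanylin and uroguanylin, was at 8.06 in CD133+, 6.91 in CD133-, 7.16 in ALDH+ and 8.34 in ALDH- cells. All levels were above the floor, and the differences of 1.15 and -1.18 were of nearly the same size in each sort (2.22-fold higher and 2.27-fold lower). ADGRG7, an adhesion G protein-coupled receptor, was at 6.22 in CD133+, 4.45 in CD133-, 5.56 in ALDH+ and 6.99 in ALDH- cells. The CD133- array fell below the floor, so ADGRG7 was at least 2.36-fold higher in CD133+ cells, and it was 2.69-fold lower in ALDH+ cells. FABP2, the fatty acid carrier of enterocyte cytosol, was at 2.01, 1.85, 2.45 and 2.29 in CD133+, CD133-, ALDH+ and ALDH- cells. FABP2 was below the floor on every array, and its differences of 0.16 and 0.17 give no order of the fractions.

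**Figure D1:**
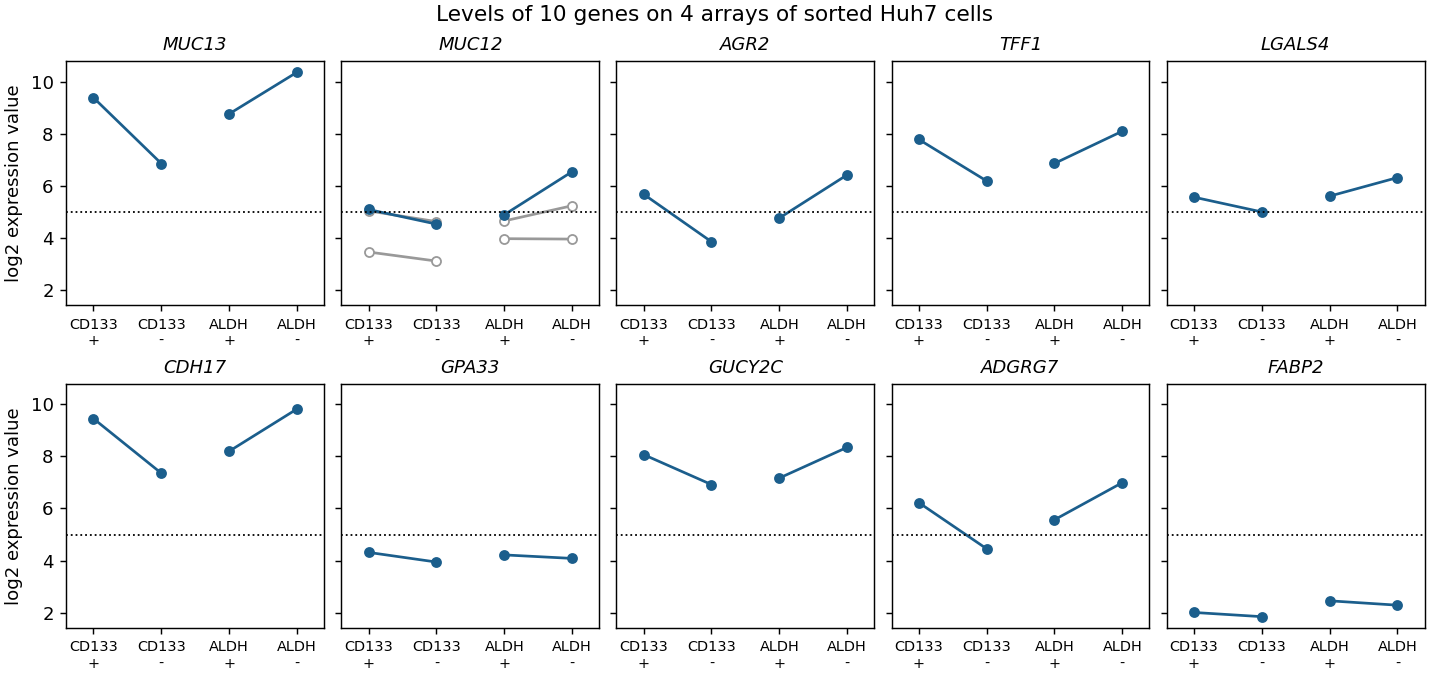
Log2 expression value (vertical axis) of the 10 genes on the CD133+, CD133-, ALDH+ and ALDH- arrays, 1 array each, with lines joining the fractions of a sort and the dotted line marking the floor of 4.98. Filled points are the probe used for a gene and open points the other probes of MUC12; GPA33 and FABP2 stay below the floor on all arrays.

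The order of the 4 arrays was alike for most of these genes. Of the 8 genes above the floor, 8 were highest in ALDH- and 8 lowest in CD133- cells, where 24.2% and 21.1% of the 12177 genes that passed the floor in either sort had that array at that end. The full order from high to low, ALDH-, CD133+, ALDH+ and CD133-, held for 7 of the 8 genes and for 4.22% of all those genes. CD133+ and ALDH- cells were both above the other arrays in the same 7 genes, which 13.2% of all genes showed. LGALS4 was the exception, with ALDH+ at 5.60 just above CD133+ at 5.57. AGR2 and MUC12 were below the floor in both ALDH+ and CD133- cells, so the lower end of their order is uncertain. The differences within the sorts fix part of this order, so nothing is read from these shares, and neighbours in it cannot be set against a spread.

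PROM1 itself had another order at its upper end. It was at 8.39 in ALDH- and 7.11 in ALDH+ cells, and its CD133+ level was 0.61 above its ALDH- level. MUC12 (1.45), MUC13 (0.98), ADGRG7 (0.77), LGALS4 (0.75), AGR2 (0.75), CDH17 (0.37), TFF1 (0.31) and GUCY2C (0.28) were instead higher in ALDH- than in CD133+ cells. At the lower end, ALDH+ cells exceeded CD133- cells by 1.90 for MUC13, 0.84 for CDH17 and 0.25 for GUCY2C. The excess was 1.11 for ADGRG7, whose CD133- level was below the floor, and 0.91 for AGR2, with both levels below it. Over the 12177 genes the median of the first difference was -0.04 and that of the second -0.10. These comparisons cross sorts, and a difference between the sorts as such cannot be told apart from one between the fractions.

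**Figure D2:**
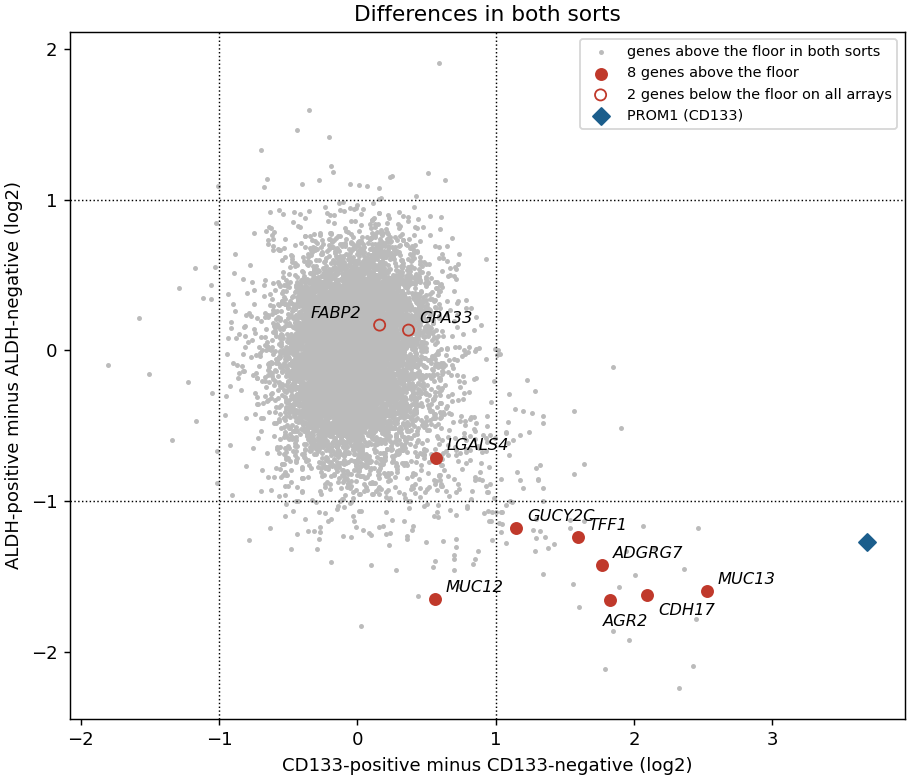
Difference between CD133+ and CD133- cells (horizontal axis, log2) against that between ALDH+ and ALDH- cells (vertical axis, log2), with 1 grey point per gene above the floor in both sorts, the 8 described genes above the floor as filled red points, the 2 below it as open ones and PROM1 as a diamond. Dotted lines mark 2-fold; 6 of the genes lie at the lower right, MUC12 at 0.56 and -1.65, and GPA33 and FABP2 near the centre.

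The floor touched some of these genes more than others. The 5 genes with all arrays above it, MUC13, TFF1, LGALS4, CDH17 and GUCY2C, keep the same differences when values below the floor are raised to it. AGR2 then differed by 0.69 and -1.44, ADGRG7 by 1.24 in the CD133 sort, and MUC12 by 0.11 and -1.56. Over the 10 genes the median CD133 difference was 1.37 and the median ALDH difference -1.33, beside -0.01 and 0.03 over all genes.

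**Figure D3:**
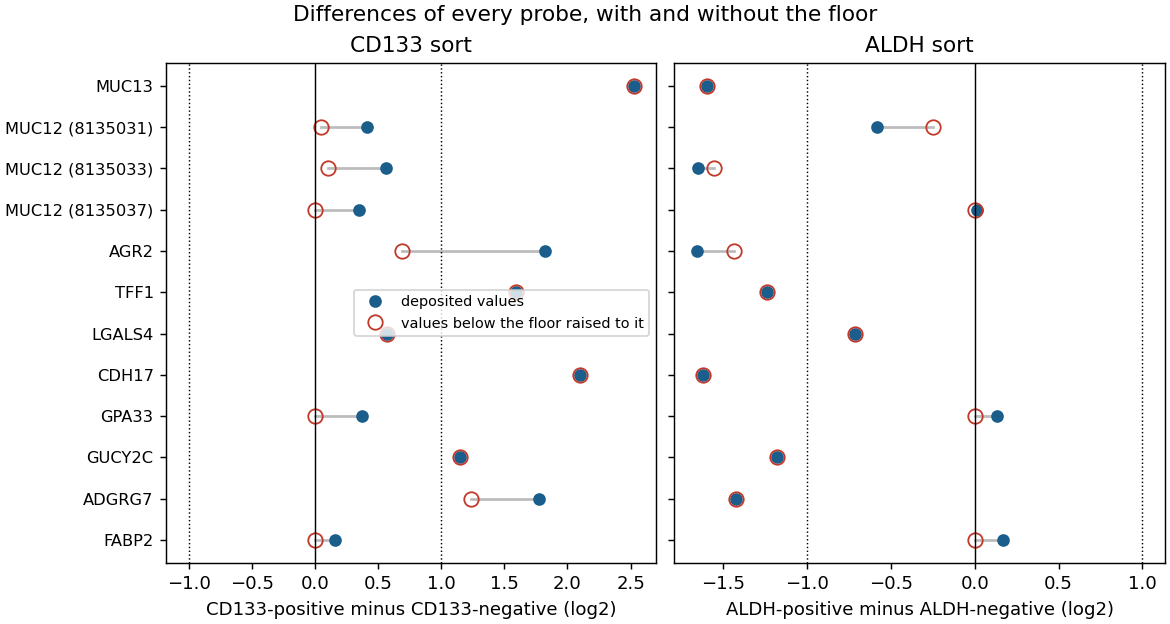
Positive minus negative difference (log2, horizontal axis) of each of the 12 probes of the 10 genes in the CD133 sort (left) and the ALDH sort (right), from deposited values (filled) and with values below the floor of 4.98 raised to it (open rings). The open ring leaves the filled point for AGR2, ADGRG7, GPA33, FABP2 and all probes of MUC12 in the CD133 sort, and AGR2 ends at 0.69 there.

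With the genes described here and PROM1 left out, the genes whose pair of differences lay nearest to that of MUC13, out of 11284 compared, were SI, SLC7A7, COL2A1, COL14A1 and NOX1. SI, the sucrase-isomaltase of the brush border, differed by 2.45 and -1.78 and lay at a distance of 0.20. SLC7A7, an amino acid transporter subunit, differed by 2.36 and -1.45, and the collagen gene COL2A1 by 2.46 and -1.18. COL14A1 (2.14 and -1.31) and NOX1 (2.43 and -2.09), an oxidase subunit found in colon epithelium, followed. The CD133- values of SLC7A7, COL14A1 and NOX1 were below the floor. Nearest to the median pair of the 10 genes were PRR15L, PRDM1, PRSS3P2, UGT8 and MGLL, at distances of 0.02 to 0.12. PRR15L was at 7.32, 5.95, 6.67 and 7.99 in CD133+, CD133-, ALDH+ and ALDH- cells, and differed by 1.38 and -1.31. PRDM1, a transcriptional repressor (1.42 and -1.29), was above the floor in CD133+ and ALDH- cells only. UGT8, an enzyme of galactolipid synthesis, differed by 1.36 and -1.24, and MGLL, the monoglyceride lipase, by 1.29 and -1.24. The trypsinogen pseudogene PRSS3P2 (1.28 and -1.33) may share signal with its relatives and is uncertain. Likeness here is the Euclidean distance between 2 differences from 4 arrays. Of 47 genes at least 2-fold higher in CD133+ and lower in ALDH+ cells, 6 being genes described here, 37 were highest in ALDH- and 42 lowest in CD133- cells. Over the genes above the floor in either sort, these shares were 24.2% and 21.1%. The selection leaves only CD133+ or ALDH- cells as the highest and only CD133- or ALDH+ cells as the lowest. Nothing is therefore read from these counts.

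Other mucins did not share the pattern of MUC13 at 2-fold. Of 11 further membrane mucins and related sialomucins measured, 0 were at least 2-fold apart in the CD133 sort, against 1 in that for ALDH, with median differences of 0.01 and 0.16 and 5 of them above the floor on any array. That gene was MUC15, at 6.70 in CD133+, 7.08 in CD133-, 6.62 in ALDH+ and 7.74 in ALDH- cells (-0.38 and -1.12). MUC3A, a neighbour of MUC12 in the same cluster of mucin genes, differed by -0.02 and -0.69, and MUC17, of that cluster too, was at 3.55 to 3.94, below the floor. Of 6 gel-forming and secreted mucins 3 were above the floor in each sort, and none reached 2-fold. MUC2, the main gel-forming mucin of the gut, was at 4.51 to 4.87, below the floor on all arrays, and MUC6 differed by 0.36 and 0.53, higher in the positive fraction of each sort. OVGP1 differed by 0.17 and -0.61.

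Counts by direction in the lists that follow stand beside those over all 18377 genes with no floor, of which 49% were higher and 50.9% lower in CD133+ cells, and 53.8% were higher and 46.1% lower in ALDH+ cells. Counts at 2-fold, also those of the mucins above, stand beside shares of the genes above the floor. At 2-fold, 0.716% were higher and 0.164% lower in CD133+ cells, and 0.278% higher and 1.3% lower in ALDH+ cells. The enzymes that put sugars on mucins were mixed. Of 25 measured, 14 were higher and 11 lower in CD133+ cells (median 0.03), and 16 were lower and 9 higher in ALDH+ cells (median -0.22), none of them at 2-fold. GCNT3, which branches mucin sugar chains, differed by 0.91 and -0.56 with all levels above the floor. GALNT5, which starts such chains, differed by 0.45 and -0.98. FUT3 was lower in the positive fraction of each sort (-0.35 and -0.94) but lay below the floor on all arrays. ST6GALNAC1, a sialyltransferase, differed by 0.93 and -0.68, but only its ALDH- level (5.01) passed the floor, and the lowest was 3.86.

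Among 11 goblet cell genes, 11 were higher in CD133+ cells with a median of 0.28, and 7 were lower in ALDH+ cells with a median of -0.05, beside 49% and 46.1% of all genes. Once dim values were raised to the floor, both medians were 0. Only 5 of them were above the floor in the CD133 sort, against 4 in that for ALDH. ZG16, a secreted lectin of goblet cell granules, was at 6.68 in CD133+, 5.98 in CD133-, 6.43 in ALDH+ and 7.81 in ALDH- cells, the same order as MUC13. Its differences were 0.70 and -1.38. TFF2, the trefoil peptide next to TFF1 in the genome, differed by 0.59 and -0.83, and TFF3, the goblet cell trefoil peptide, by 0.51 and -0.06. AGR3, the closest relative of AGR2, was below the floor at 1.70 to 2.11, and the goblet cell regulators ATOH1 and SPDEF were at 4.55 to 4.90 and 4.84 to 5.10. Of 15 protein disulfide isomerases, to which AGR2 belongs, none reached 2-fold, and the medians were 0.07 and -0.06. The largest differences were those of DNAJC10 (0.21 and -0.98) and ERP27 (0.71 and -0.66).

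Of 9 galectins beside LGALS4, 2 were at least 2-fold lower in ALDH+ cells and 0 reached 2-fold in the CD133 sort, with medians of 0.01 and -0.50 (-0.30 in the ALDH sort with values raised to the floor). LGALS3, galectin-3, a lectin found on many epithelia, was at 8.06 in CD133+, 7.09 in CD133-, 7.34 in ALDH+ and 8.48 in ALDH- cells. Its differences of 0.97 and -1.13 exceeded those of LGALS4. LGALS14 differed by 0.01 and -1.06, and it has close copies among the placental galectins, so its value is uncertain.

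Of 19 further cadherins, 0 were at 2-fold in the CD133 sort, against 1 in that for ALDH, with medians of 0.15 and 0.17. CDH1, the epithelial cadherin, differed by 0.10 and -0.44, and CDH2, the neural cadherin, by 0.73 and -0.33. CDH9 was the one at 2-fold (-0.09 and -1.04); it was at 4.60 in ALDH+ cells, below the floor, and its ALDH difference against the floor was -0.65. Of 9 immunoglobulin-type surface proteins related to GPA33, 0 reached 2-fold, with medians of -0.00 and 0.11. The largest difference was that of VSIG8 at 0.61 in the ALDH sort, or 0.35 against the floor, since its ALDH- level lay below it. VSIG2 came next with 0.07 and 0.33. Of 11 other intestinal surface proteins, 2 were at least 2-fold higher in CD133+ and lower in ALDH+ cells. Both at once held for 0.416% of the genes above the floor in both sorts. The list medians were 0.37 and -0.51, or 0 in both sorts with values raised to the floor. The 2 genes were TSPAN8, a tetraspanin (1.29 and -1.12), and EPCAM, the epithelial adhesion molecule (1.10 and -1.003, only just past 2-fold). TSPAN8 was at 8.46 in CD133+ and 8.26 in ALDH- cells, against 7.17 and 7.14 in CD133- and ALDH+ cells. TM4SF20 differed by 1.52 and -1.49 but lay below the floor on all arrays (2.30 to 4.95).

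The partners of GUCY2C showed no 2-fold difference. Of 9 measured, 4 passed the floor on an array, with medians of 0.08 and 0.02 over the list. Its ligand genes GUCA2A (0.06 and 0.32) and GUCA2B (0.08 and 0.30) were higher in the positive fraction of each sort. The chloride channel CFTR, which the receptor opens through cyclic GMP, was below the floor at 3.0 to 3.77, and PDE5A, an enzyme that degrades cyclic GMP, was at 2.92 to 4.03. Of 28 further adhesion G protein-coupled receptors, 0 reached 2-fold, with medians of 0.11 and -0.03. The largest differences among those above the floor were in ADGRV1 (0.27 and -0.91) and ADGRG6 (0.07 and -0.73). Of 6 fatty acid binding proteins beside FABP2, 0 were above the floor in the CD133 sort, against 2 in that for ALDH, FABP3 (-0.54) and FABP6 (0.16). FABP3 was at 4.58 in ALDH+ cells, below the floor, and its ALDH difference against the floor was -0.13. FABP7 differed by 0.54 and 0.09 but lay below the floor on all arrays.

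**Figure D4:**
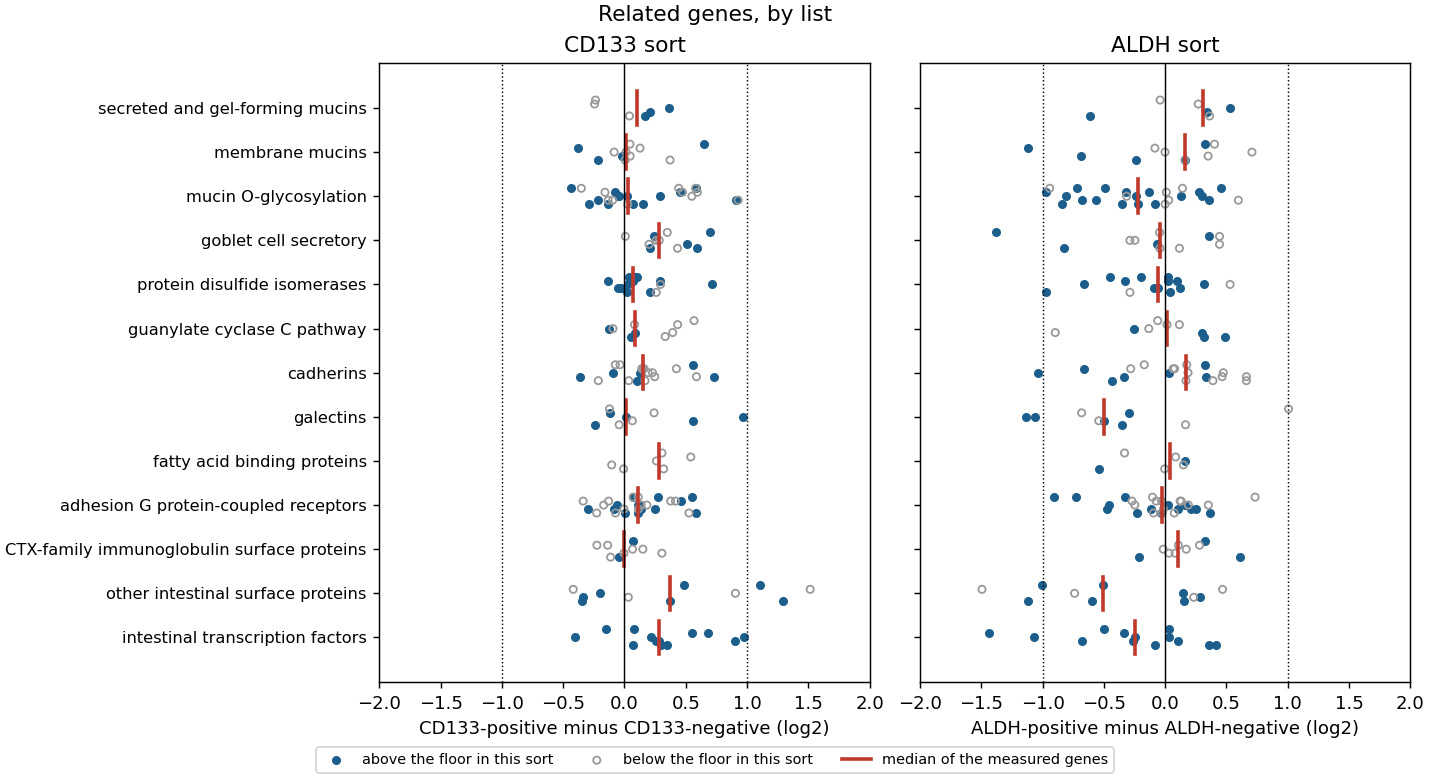
Positive minus negative difference (log2, horizontal axis) of the genes related to the 10 described, by list, in the CD133 sort (left) and the ALDH sort (right). Filled points are above the floor in that sort, open points below it, red bars mark the median of the measured genes and dotted lines 2-fold; the surface protein list has medians of 0.37 and -0.51, and the galectins 0.01 and -0.50.

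Transcription factors known from the intestine were all above the floor where measured. Of 13 measured, 11 were higher in CD133+ cells with a median of 0.28, and 8 were lower in ALDH+ cells with a median of -0.24. The shares were 49% and 46.1% of all genes with no floor, and 42.9% and 51.5% of the genes above the floor. CDX2, which directs intestinal identity, was at 8.53 in CD133+, 7.63 in CD133-, 7.90 in ALDH+ and 8.58 in ALDH- cells (0.90 and -0.68). HNF4G (0.55 and -1.44) and KLF4 (0.98 and -1.07) were at least 2-fold lower in ALDH+ cells, while CDX1 differed by 0.35 and 0.42.

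Marker genes of further cell types were read beside these genes. The liver markers ALB and AFP were at 10.93 to 11.71 and 11.56 to 11.86 on all arrays, far above the floor. Of 14 hepatocyte markers, all above the floor, 12 were lower in CD133+ cells (median -0.38) and 7 lower in ALDH+ cells (median -0.01). The shares were 50.9% and 46.1% of all genes with no floor. Among genes above the floor, only 42.9% were higher in CD133+ cells, so lower in CD133+ cells was the more common direction there (median difference -0.04). Of those genes in the ALDH sort, 51.5% were lower in ALDH+ cells. HP, AHSG and APOH, 3 of the 12, were at least 2-fold lower in CD133+ cells, beside 0.164% of the genes above the floor. The summed linear signal of the hepatocyte markers was 18975 in CD133+, 21304 in CD133-, 17710 in ALDH+ and 18166 in ALDH- cells. The summed signal of 11 goblet cell genes was 463, 333, 453 and 666 on the same arrays. ZG16 (7.81), TFF2 (7.62) and TFF3 (6.74) were the brightest of them in ALDH- cells and weigh most in such a sum, while most of the others lay below the floor. Of 9 leukocyte markers 5 were above the floor, the defining PTPRC was at 2.45 to 2.64, and the sum ran from 499 to 624. Of 9 enteroendocrine markers 2 were above the floor (sums of 193 to 229), of 6 Paneth cell markers only LYZ, which is also on the leukocyte list (159 to 363), of 8 fibroblast markers 4 (262 to 308) and of 6 endothelial markers 3 (118 to 165). The part of these in the differences above was not tested.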

How the data were processed

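RNA of 4 sorted Huh7 fractions was measured, 1 array each. The deposited values are log2 expression values made by the authors with RMA, per the submitters' processing notes. Their range (0.556 to 13.5) is that of log2 values. Software version, build and any later centring or filtering are not given in the sources used here. RMA makes arrays alike in distribution and compresses dim differences.

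Of 28869 probes, 19310 had exactly 1 symbol in the platform annotation, 1752 several and 7807 were not listed; 19279 of the first matched RefSeq (GRCh38.p14) by gene identifier. Where a gene had several probes the brightest on average stood for it, giving 18377 genes. Differences are the positive minus the negative fraction. A fold given as at least has the floor in place of the dimmer array. No test was made, since each group has 1 array and the number of arrays limits precision. The 10 genes and 19 lists were chosen with earlier results of these data known. Named from a list were members at 2-fold above the floor, or otherwise the 2 with the largest difference; other members of a list named in the text were chosen after their values were seen. Named by likeness were the 5 genes nearest to MUC13 and the 5 nearest to the median pair. The counting was tested on simulated data of 18377 genes (200 of 200 genes changed 4-fold recovered, 0 others). Only bright genes were changed, by more than the 2-fold threshold, and the added noise was small, so this outcome was fixed in advance. It checks the code and gives no error rate for these arrays or for genes near the floor. Python 3.11.15, pandas 2.3.3, statsmodels 0.14.6 and matplotlib 3.10.9 were used.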

Additional observations from a re-analysis of the deposited data

Results flagged for a closer look

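By the deposited values, for 6 genes the positive fraction lay at least 2-fold above the negative one in the CD133 sort and at least 2-fold below it in the ALDH sort. The difference between the sorts was not tested, since each sort has 1 pair of arrays. MUC13 differed by 2.53 between the CD133 fractions and by -1.60 between the ALDH fractions. CDH17 differed by 2.10 and -1.62, and AGR2 by 1.82 and -1.66. The CD133- level of AGR2 was below the floor, and with values raised to the floor its CD133 difference was 0.69, short of 2-fold, which leaves 5 genes. ADGRG7 differed by 1.77 and -1.43, TFF1 by 1.59 and -1.24, and GUCY2C by 1.15 and -1.18. The opposite sense depends on the ALDH labels, which the ALDH1A1 transcript (a difference of 0.04) did not check.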

How the results depend on the processing

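Over 8 alternatives (1.5-fold in place of 2-fold, a floor at the upper quartile of the table, none at all, values below the floor raised to it, the mean over a gene's probes, a second quantile normalization, centring of each pair, loess), 4 to 6 genes were higher in CD133+ cells, 6 to 8 lower in ALDH+ cells, and 4 to 6 both. Under the higher floor the 4 were MUC13, TFF1, CDH17 and GUCY2C. In the main setting the shares over all genes above the floor were 0.716%, 1.3% and 0.416%. Shares over all genes were not counted under the alternatives. The genes were chosen on these same contrasts, so nothing is read from how steady their counts were. Of 106 recalculated differences, 102 stayed on their side of 2-fold. Part of the 106 could not move, so this count overstates how firm the differences are. The mean over probes repeats the main value for genes with 1 probe. Raising to the floor changes nothing where both arrays of a sort lie above it, and the brightest MUC12 probe on its own is the main value. The exceptions were AGR2 in the CD133 sort with values raised to the floor (0.69) and MUC12 in the ALDH sort as the mean of its probes (-0.74) and from 2 single probes (-0.58, and 0.016 with the sign turned). The cause of the disagreement between probes was not tested. The number of arrays limits every value. No paired analysis was possible because each group has 1 array.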

Other observations

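LYZ, the gene of lysozyme, which Paneth cells and macrophages secrete, ran against the order of the intestinal genes. It was at 7.52 in CD133+, 8.22 in CD133-, 7.77 in ALDH+ and 6.44 in ALDH- cells, lowest where MUC13 was highest and highest where MUC13 was lowest. The other Paneth cell markers measured, DEFA5, DEFA6, REG3A, PLA2G2A and ITLN2, were below the floor on all 4 arrays. Some genes listed here, MUC15 (-0.38 and -1.12), LGALS14 (0.01 and -1.06) and MUC3A (-0.02 and -0.69), were highest in ALDH- cells with a CD133 difference near or below 0. The prealbumin gene TTR, a liver product, was at 11.61 in CD133+, 10.62 in CD133-, 11.22 in ALDH+ and 11.81 in ALDH- cells, the same order as MUC13. LYZ, MUC15, LGALS14, MUC3A and TTR were picked out after their values were seen.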
